A study of Mus musculus with 13 samples.

Results

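The genes described here are Trp53, which encodes the transcription factor p53, its regulators Mdm2 and Mdm4, and 6 genes that p53 is known to activate, Cdkn1a, Ccng1, Zmat3, Phlda3, Bbc3 and Gadd45a. These 9 genes were chosen by name, as the p53 pathway, from the 37991 genes of the deposited count table, with earlier results from the same cells known. Their levels are therefore given as a description, without a test. Naive B cells from the spleens of wild type C57BL/6 mice aged 6 to 8 weeks were stimulated in culture with CpG ODN 1668, a DNA ligand of the receptor TLR9, and were caught singly on a microfluidic chip after 24 h. The labels give the dose as 250 nM in one field and as 250 ng/mL in another. Large cells were those in wells C1, C3, E1, E3 and G2, and small cells were those in wells A2, C12, C7, F7 and H1. The mice were untreated before the B cells were taken, and every cell had received the same stimulus for the same time, so that size was the only labelled difference between both groups. The control libraries were diluted bulk cDNA of cells stimulated for 24 h (the Positive library), an unstimulated bulk sample (0 h), and a library with spike-in RNA but no cell. No mouse or culture is named for a cell, so each size group counts as 1 sample and differences between large and small cells have no replicate check.

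The protein p53 is held at a low level in resting cells by Mdm2, an E3 ubiquitin ligase that marks it for degradation, and by Mdm4, a relative of Mdm2 that binds p53 and blocks its activity. DNA damage and other stresses release p53 from both, mainly by changing the protein and not the mRNA, and p53 then activates genes for cell cycle arrest, for repair, for apoptosis and for its own restraint, Mdm2 among them. B cells that have been stimulated through TLR9 grow before they divide, and p53 is among the brakes on both division and survival in lymphocytes. The data measure mRNA only, and hold no value for the p53 protein.

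p53 binds DNA at pairs of a 10-base half-site. The RefSeq windows of GRCm38.p6, which run over 250 bases before and 50 bases after a gene's start, covered 8 of the 9 genes with 12 windows, since Mdm4, Cdkn1a and Bbc3 have several starts. Zmat3 had no entry. A decamer with the p53 half-site pattern and no mismatch was found in 5 of the 12 windows, 1 each of Trp53, Mdm2, Ccng1, Cdkn1a and Gadd45a, against 8.36% of 32851 windows of the same 300 bases over all genes. The pattern reads the same on both strands, and no other motif was searched. The stretches of 60 bases below show the decamer, in capitals, for 4 of these genes. That of Gadd45a, which began 40 bases before the start, is not shown. They are written 5′ to 3′ on the gene's strand. In the Trp53 window (chr11:69580259-69580318, plus strand) the decamer began 75 bases before the start.
Trp53: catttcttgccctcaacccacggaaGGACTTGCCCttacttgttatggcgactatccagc
In the Mdm2 window (chr10:117710910-117710969, minus strand) it began 186 bases before the start.
Mdm2: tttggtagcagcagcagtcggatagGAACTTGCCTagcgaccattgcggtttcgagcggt
In the Ccng1 window (chr11:40755437-40755496, minus strand) it began 185 bases before the start.
Ccng1: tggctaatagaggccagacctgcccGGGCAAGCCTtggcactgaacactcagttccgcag
For Cdkn1a, the window of the downstream start (chr17:29093519-29093818) held no decamer. That of the upstream start (chr17:29090881-29090940, plus strand) held 2 decamers, which began 73 and 51 bases before that start.
Cdkn1a: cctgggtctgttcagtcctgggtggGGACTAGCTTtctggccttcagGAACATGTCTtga
A match is a description of the letters, and binding was not measured in these cells.

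Total counts were 4043241 to 6311782 in the large cells and 3311235 to 6191247 in the small cells. The Positive library had 1740862 counts, the 0 h library 825441 and the spike-in library 190, and none of the 190 fell on the 9 genes. Values are given as raw counts, as CPM, the count scaled to a library of 1000000 counts, and as the study's adjusted count, the count times a factor from the spike-ins plus 100. A gene counted as on where its adjusted count passed 300. The factor was lowest in large cell G2 (0.0998), which had 656 genes on, and highest in large cell C1 (1), with 3103. Small cell A2 had a factor of 0.935 and 3819 genes on. Of 8 B cell markers, 5 to 7 were on in every cell but C3, where 1 was on and their summed level was 784 CPM, against 3597 to 28666 CPM in the other 9 cells. The defining markers of T cells, NK cells and red cells had no read in any of the 10 cells. Of 5 myeloid markers Adgre1 alone was on, in G2, C3 and C12, and of 4 plasma cell markers Prdm1 was on in G2, A2 and C12, Irf4 in E1, E3, A2 and C12, and Jchain in A2. The part of these genes in the results was not tested. Comparisons of size groups leave out C3, as the study did, and its values are given beside them. Intervals are exact 95% Poisson intervals and cover counting error only, since PCR copies without molecular identifiers are not independent molecules.

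Trp53 was the one member found in every cell. It was on in all 10 cells, and over the 9 cells without C3 it belonged to the 2.72% of 6435 genes that were on in each. Among the large cells, the adjusted count of Trp53 reached 6682 in C1, with 3302 in E1, 2659 in E3, 440 in C3 and 420 in G2, against 1296 in A2, 1049 in C12, 866 in C7, 936 in F7 and 459 in H1 among the small cells. The large cells thus lay on both sides of the small ones, with C1, E1 and E3 above all 5 and G2 and C3 below all 5. As CPM, Trp53 stood at 1628 in C1, 1141 in E1, 1077 in E3, 573 in G2 and 406 in C3, against 246 in A2, 548 in C12, 782 in C7, 365 in F7 and 226 in H1. On this scale C1, E1 and E3 were again above every small cell, and G2 and C3 fell among the small cells, so that the groups overlapped on both scales.

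The mean level of Trp53 was 1105 ± 431 CPM in large cells and 433 ± 233 CPM in small cells (SD over cells, n = 4 and 5), a ratio of 2.55. With C3 kept the mean of the large cells was 965 ± 487 CPM (n = 5). The log2 ratio of the mean adjusted counts, large over small, was 1.83, and it was 1.21 without C1 and 2.19 without G2, the lowest and highest values when any 1 cell was left out. Over the groups the reads amounted to 23437 in 4 large cells (interval 23138 to 23739) and 10532 in 5 small cells (10332 to 10735). The study's expression score subtracts the fraction of small cells that have a gene on from the fraction of large cells that do. It was 0 for Trp53, which was on everywhere. In the order of CPM most neighbouring cells were apart by more than counting error. G2 (554 to 593) and C12 (529 to 567) were not, nor were A2 (232 to 259) and H1 (214 to 239).

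**Figure D1:**
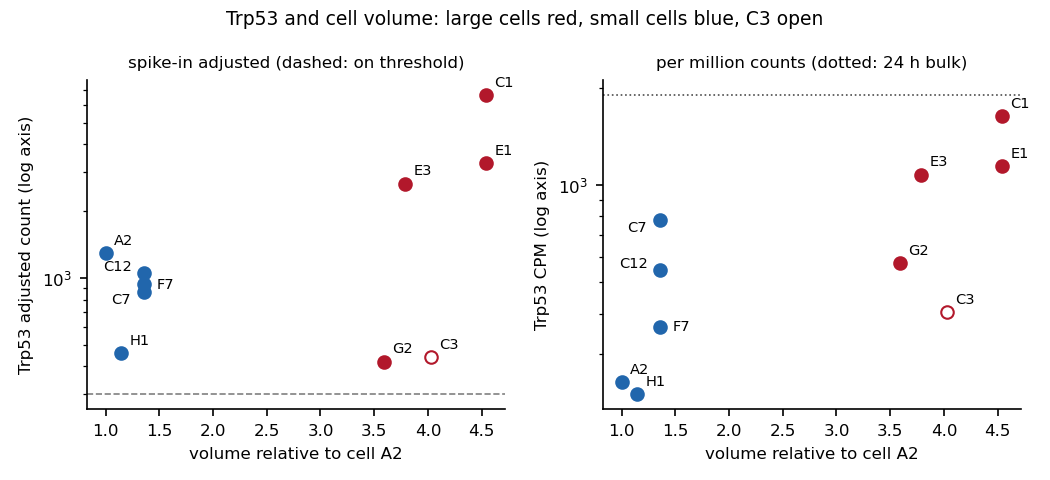
Trp53 in each cell against the cell's volume relative to A2, as adjusted count with the on threshold of 300 dashed (left) and as CPM with the Positive library at 1897 CPM dotted (right), both on log axes. Large cells are red, small cells blue and C3 is open; on the left, C1, E1 and E3 lie above the small cells and G2 and C3 below them.

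In the plot of Trp53 against volume, cells of similar volume shared a level in some cases and not in others. C1 and E1 had the same relative volume of 4.54, with adjusted counts of 6682 and 3302. Their raw counts were 6582 and 7202, with factors of 1 and 0.445. C3 had a volume of 4.03 and an adjusted count of 440. Small cells C12, C7 and F7 shared a volume of 1.36, with adjusted counts of 1049, 866 and 936. As CPM these 3 cells stood at 548, 782 and 365. The highest CPM of Trp53 over the 9 cells was 7.20 times the lowest. Over the 175 genes that were on in all 9 cells the median of this range was 4.58, and 54 of them had a wider range than Trp53. Per kilobase of exon, Trp53 was the highest of the 9 members in every cell but C7, where Ccng1 was above it. Its rank by CPM per kilobase among all genes with a read was best in C1, at 100 of 7124, and lowest in H1, at 1178 of 6159. Trp53-ps, a processed copy of the gene, had 0 to 4 counts in the cells, and reads that match both copies cannot be told apart.

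In the Positive library Trp53 had 3303 counts, or 1897 CPM, which was above each of the 10 cells. The mean of the 9 cells was 732 CPM, 0.386 of that level. Its rank there was 112 of 5018 genes with a read. The adjusted count was 299, just under the on threshold, with a factor of 0.0602, so that on and off in the Positive library are not comparable with the cells. Below, counts and CPM are used for it, except where a comparison with the 0 h library names the authors' factor.

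**Figure D2:**
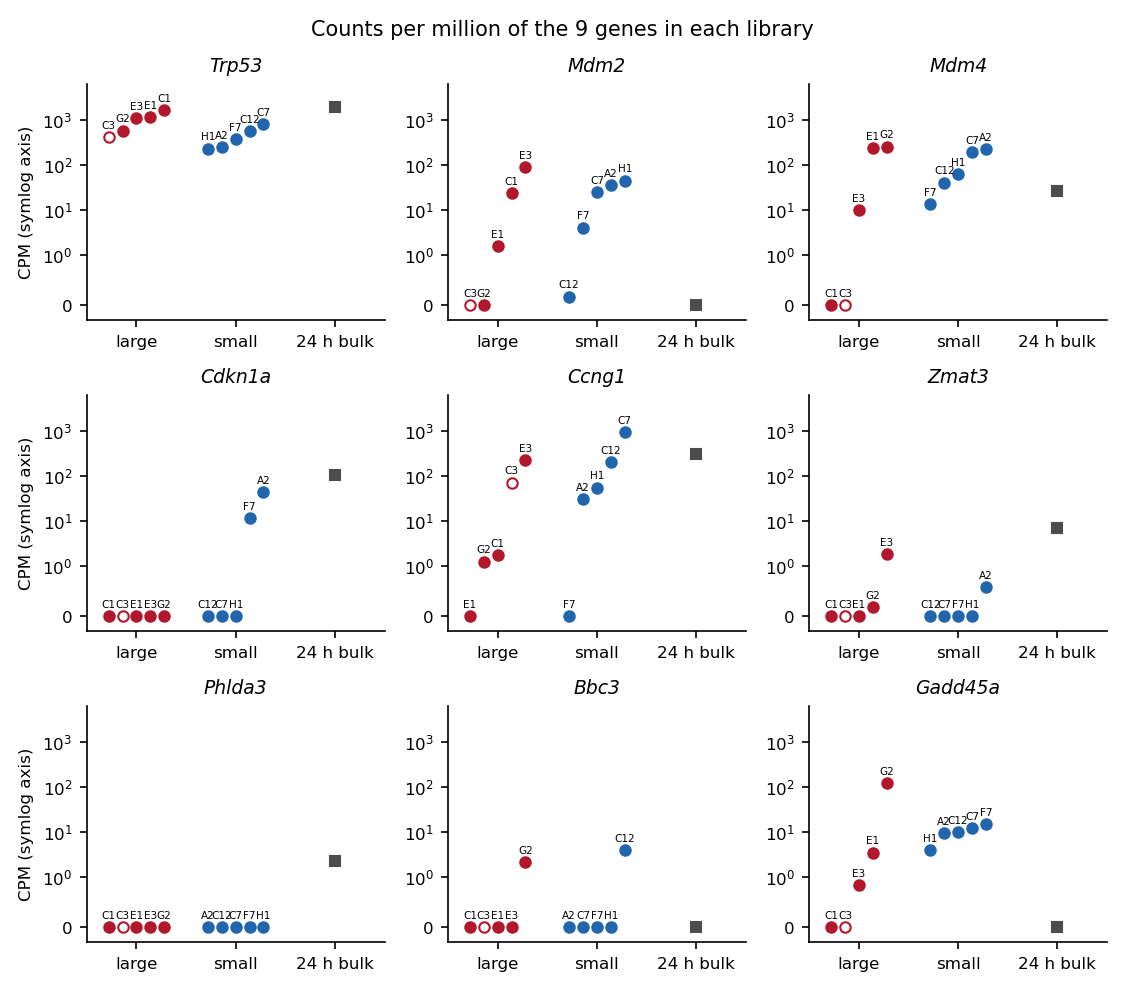
CPM of each of the 9 genes, with the large cells left (red, C3 open), the small cells in the middle (blue) and the Positive library right (grey square), on an axis that is linear below 1 and logarithmic above. Trp53 is at 226 CPM or more in each library shown, while the other 8 genes have cells with no read.

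The regulators of p53 were detected in most cells but at lower levels. Mdm2, the ligase, had reads in 8 of 10 cells. Among the large cells its counts were 94 in C1, 10 in E1, 532 in E3, 0 in G2 and 0 in C3, against 185 in A2, 1 in C12, 83 in C7, 25 in F7 and 243 in H1 among the small cells. The groups overlapped, and E3 stood highest. As CPM, E3 had 88.8 and C1 23.2, against 44.2 in H1, 35.5 in A2 and 25.1 in C7. Mdm2 was on in E3 alone, at an adjusted count of 311, and A2 was just under the threshold at 273. Of the 6435 genes, 34.9% were on in exactly 1 of the 9 cells. The log2 ratio was 0.19, and it was -0.23 without E3, 0.49 without A2 and 0.06 with C3 kept. The Positive library had no read of Mdm2 in 1740862 counts, which allows up to 1.72 CPM at 3 counts, a level that C1, E3, A2, C7, F7 and H1 exceeded. A read was lacking there for 45.5% of the 6435 genes.

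Mdm4, the relative of Mdm2, also had reads in 8 of 10 cells. Its counts were 1459 in E1, 59 in E3, 1411 in G2, and 0 in both C1 and C3 among the large cells, against 1170 in A2, 232 in C12, 621 in C7, 82 in F7 and 345 in H1 among the small cells. E1, G2 and A2 were alike in CPM, at 231, 252 and 225, and C7 followed with 188. All 5 small cells had reads, and the large cells held both the highest value and the cells with none. Mdm4 was on in E1 (adjusted count 749) and A2 (1194), and the counts of G2 gave 241 after its low factor. The log2 ratio was -0.38, and it was -1.35 without E1 and 0.63 without A2, so that single cells decided its sign. In libraries scaled to equal totals it was 0.19. The Positive library had 47 counts of Mdm4, a CPM below that of 6 of the 10 cells. By CPM, Mdm2 was highest in E3 and Mdm4 in G2. No cell had both regulators on, but Mdm2 was on in only 1 and Mdm4 in only 2 of 10 cells. Nothing is read from this lack of overlap, and A2, with Mdm4 on, had Mdm2 just under the threshold (adjusted count 273).

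Cdkn1a, which encodes the cell cycle inhibitor p21 and is the textbook arrest target of p53, had no read in any of the 5 large cells, where 3 counts would have given 0.475 to 0.742 CPM. In the small cells it had 228 counts in A2 (43.8 CPM), 72 in F7 (11.6 CPM) and 0 in C12, C7 and H1. The large cells thus matched 3 of the 5 small ones, and the difference rested on A2 and F7. The sums were 0 in 4 large cells and 300 in 5 small cells (267 to 336). Cdkn1a was on in A2 alone, with an adjusted count of 313. The log2 ratio was -0.57, which became -0.09 without A2 and, since the added constant pulls low genes toward 0, -2.54 with a constant of 10. In the Positive library Cdkn1a had 177 counts (102 CPM), more than any cell. In C1, the cell with the most Trp53, there was no read of Cdkn1a.

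Ccng1, the gene for cyclin G1, which recruits a phosphatase to Mdm2 and so feeds back on p53, was the target with the highest level. Its counts were 7 in C1, 0 in E1, 1330 in E3, 7 in G2 and 289 in C3 among the large cells, against 158 in A2, 1142 in C12, 3023 in C7, 0 in F7 and 301 in H1 among the small cells. Both groups held a cell without a read and a cell above 1000 counts. As CPM the levels were 222 in E3 and 70.0 in C3, against 913 in C7, 198 in C12, 54.8 in H1 and 30.4 in A2. Ccng1 was on in E3 (adjusted count 628), C12 (443) and C7 (993). In C7 its level per kilobase was 260 CPM, against 193 CPM for Trp53. The log2 ratio was -0.75, and it was -0.06 without C7, -1.94 without E3 and -1.78 in libraries scaled to equal totals. The Positive library had 539 counts (310 CPM), and C7 alone was above it. Ccng1 was the only member whose mean CPM over the 9 cells came within 2-fold of the Positive library, at 0.510 of it, against 23.4% of the 6435 genes. None did with C3 kept, with counts pooled over cells, or without E3, C12 or C7.

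The other 4 targets were never on. Zmat3, which encodes an RNA-binding zinc finger protein, had 11 counts in E3 and 1 in G2 among the large cells, against 3 in A2 among the small cells, and no read in the other 7 cells. The Positive library had 12 counts of Zmat3 (6.89 CPM), which was above every cell. Phlda3, whose product restrains the kinase Akt, had no read in any of the 10 cells, where 3 counts would have given 0.475 to 0.906 CPM. It had 4 counts in the Positive library (2.30 CPM). Bbc3, which encodes the pro-apoptotic protein PUMA, had 12 counts in G2 among the large cells, against 23 in C12 among the small cells, and none in the other 8 cells or in the Positive library. These 3 genes had at most 23 counts in any cell, and no difference between large and small cells is read from them.

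Gadd45a, a stress gene that takes part in growth arrest and DNA repair, had reads in more cells. Its counts were 0 in C1, 22 in E1, 5 in E3, 679 in G2 and 0 in C3 among the large cells, against 49 in A2, 58 in C12, 40 in C7, 93 in F7 and 22 in H1 among the small cells. Large cell G2 was thus far above every other cell, and the other 4 large cells were at or below the lowest small cell. The same held for CPM, with 121 in G2, 3.49 in E1 and 0.835 in E3, against 9.41 in A2, 10.1 in C12, 12.1 in C7 and 4.00 in H1, with F7 the highest small cell. After the factor of G2, its adjusted count was 168, against 146 in A2. The direction depended on the scaling. The log2 ratio was -0.04 in adjusted counts, 0.80 in libraries scaled to equal totals and 0.86 in raw counts. The Positive library had no read of Gadd45a. The overlapping antisense gene E230016M11Rik had no read in the 10 cells.

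Per kilobase of exon, the mean levels over the 9 cells ran from Trp53 at 181 CPM through Ccng1 at 45.0, Gadd45a at 11.1, Mdm4 at 7.67, Mdm2 at 4.87, Cdkn1a at 1.73 and Bbc3 at 0.321 to Zmat3 at 0.0252 and Phlda3 at 0. Among these, neighbours below Trp53 did not differ beyond their spread over cells. Each of the 8 genes after Trp53 had at least 1 cell without a read, and the ranges of Ccng1 (0 to 260), Gadd45a (0 to 68.9), Mdm4 (0 to 17.1) and Mdm2 (0 to 17.5) overlapped. The range of Trp53 (55.9 to 402) overlapped that of Ccng1. The share of Trp53 in the summed level per kilobase of the 9 members was 98.8% in C1, and its lowest value was 40.5% in C7.

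By the expression score, no member was called higher (0.5 or more) or lower (-0.5 or less) in large cells, where 5.83% of the 6435 genes were called higher and 1.88% lower. These shares rest on single cells. The 375 higher genes became 53 with C3 kept, 121 to 163 without C1, E1 or E3, and 783 without A2, and the 121 lower genes became 205 to 542 when 1 small cell was left out. The largest score of a member was 0.25, for Mdm2. Of the 9 members, 5 were on somewhere among the 9 cells (Trp53, Mdm2, Mdm4, Cdkn1a and Ccng1), as were 6435 of all 37991 genes. The median of the log2 ratios of these 5 was -0.38, beside 0.02 over the 6435 genes. Without A2 the median was 0.56 over the 4 members then on, beside 0.53 over 5729 genes. With equal totals it was 0.20 over the 6 members then on, beside -0.07 over 7500 genes. The sets of genes thus changed with the setting. Over the 10 cells and 9 genes, a member was on in 17 of 90 cases, 10 of them Trp53. The share of such cases over all genes was not computed. The number of members on was 3 in E3, 2 in E1 and 1 in C1, G2 and C3, against 3 in A2, 2 in C12 and C7 and 1 in F7 and H1. Of all 37991 genes, 2320 were on in E3, 2455 in E1, 3103 in C1, 656 in G2 and 809 in C3. In the small cells it was 3819 in A2, 1673 in C12, 961 in C7, 2134 in F7 and 1686 in H1. Nothing about the members is read from these counts.

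**Figure D3:**
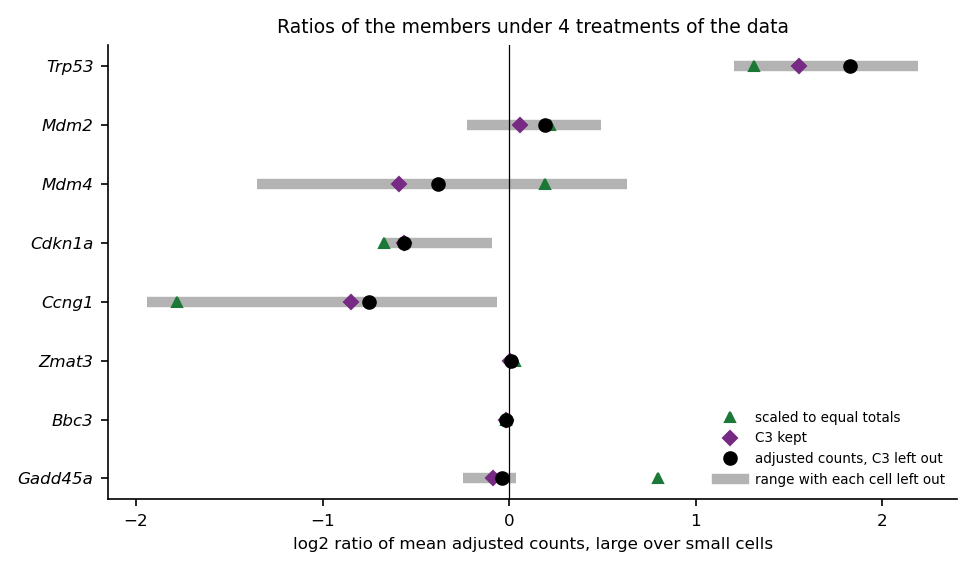
Log2 ratio of mean adjusted counts, large over small cells, for 8 members, with C3 left out (black circles), C3 kept (purple diamonds), libraries scaled to equal totals (green triangles), and the range when each cell is left out in turn (grey bars). Trp53 stays above 0 throughout, the bars of Mdm2, Mdm4, Zmat3, Bbc3 and Gadd45a cross 0, and Phlda3, with no read, is not drawn.

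The correlation of log2 adjusted counts with Trp53 over the 10 cells was 0.44 for Mdm2, 0.06 for Mdm4, 0.02 for Cdkn1a and -0.04 for Ccng1. These values describe 10 libraries that share the same factors and differ in how many genes were on, and they have no test. By the same measure the genes most like Trp53, among 1415 with 5 or more of the 10 cells on, were Cetn3, a centrin of the centrosome (r 0.92), Mgea5, the enzyme that removes O-GlcNAc (0.91), Bccip, whose product binds BRCA2 and p21 (0.91), Dennd1b, an exchange factor for Rab proteins (0.91), and Rab8a, a small GTPase (0.90). On a log2(CPM + 1) scale, 0 of these 5 genes remained among the 5 most like Trp53, and without C3 4 of them did.

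Other genes of the pathway were taken from 7 lists. Of all 37991 genes, 6435 were on somewhere among the 9 cells, the share to set beside the number on in each list. Of 12 activators of p53, 7 were on somewhere among the 9 cells. Usp7, a deubiquitinase that acts on both Mdm2 and p53, was the only one called, as lower in large cells (1.88% of all genes tested were), with 1 of 4 large cells on against 4 of 5 small cells, and mean adjusted counts of 496 in large and 1072 in small cells. This call was lost without E1, without E3 or without G2 (score -0.47 each). Among the activators not called, Trp53bp1, a DNA damage mediator, was on in 2 large against 1 small cell (log2 ratio 1.09), Chek2, a checkpoint kinase, in 1 and 1 (0.67), Crebbp, an acetyltransferase, in 1 and 2 (-0.78), and Prkdc, a DNA damage kinase, in 0 and 1 (-0.51). Of 11 inhibitors, 8 were on and none was called. Huwe1, a ligase with p53 among its substrates, had reads in all 10 cells and mean adjusted counts of 1525 in large and 525 in small cells, being on in 3 of 4 and 3 of 5 cells. Kmt5a and Rchy1 were each on in 1 large cell and 0 small cells (log2 ratios 0.83 and 0.77), and Cop1 in 0 large cells and 1 small cell (-0.54). The relatives Trp63 and Trp73 had no read in any of the 10 cells.

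Of 10 further arrest targets, 5 were on, and Btg2, an antiproliferative gene, was called lower, with 1 of 4 large cells on against 4 of 5 small cells, and mean adjusted counts of 377 in large and 568 in small cells. Of all genes tested, 1.88% were called lower and 5.83% higher. The call for Btg2 was lost without C1, without E1 or without E3 (score -0.47 each). As for Usp7, the pattern of cells on fixes this outcome, so it is no check on Btg2. Psrc1 was on in 0 large against 1 small cell (log2 ratio -1.22), Gtse1 in 1 and 1 (0.92), Ckap2 in 2 and 2 (0.25) and Sfn in 0 and 1 (-0.18). Of 13 further death targets, 8 were on, and Bid, which encodes a BH3-only protein of the apoptotic pathway, was called higher. The adjusted count of Bid averaged 939 in large cells, all 4 of them on, against 107 in small cells, none of them on. With these cells on, the call could not be lost by leaving out 1 cell or keeping C3, so neither is a check on it. Among the other death targets, Fas, a death receptor, was on in 0 large against 2 small cells (log2 ratio -1.30), Pidd1 in 0 and 1 (-0.71), Bax, a pore-forming effector of apoptosis, in 1 and 2 (0.37), and Apaf1 of the apoptosome in 1 and 0 (0.21). Of 11 targets in repair and metabolism, 4 were on and none was called. Rrm2b, a ribonucleotide reductase subunit, had mean adjusted counts of 811 in large and 185 in small cells, on in 2 of 4 and 1 of 5. Polk and Tigar were each on in 1 large cell and 0 small cells (log2 ratios 0.81 and 0.62), and Rps27l in 3 and 2 (0.25). Of 7 paralogs of the members, 3 were on and none was called. Gadd45b, the relative of Gadd45a, had mean adjusted counts of 200 in large and 766 in small cells, and stood highest in A2 (1678) and F7 (1558). Ccng2 and Cdkn1b were each on in 0 large cells and 1 small cell (log2 ratios -1.04 and -0.30).

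The median log2 ratios of the genes that were on were 0.24 for activators, -0.02 for inhibitors, -0.18 for arrest targets, 0.07 for death targets, 0.72 for repair and metabolism targets and -1.04 for paralogs, beside 0.02 over all 6435 genes. Over the members and lists together, 41 genes were targets. Mdm2 is counted among them. The number on was 7 for C1, 6 for both E1 and E3, 3 for G2 and 1 for C3 among the large cells, against 12 in A2, 4 in C12, 2 in C7, 3 in F7 and 3 in H1 among the small cells. The cells with the most targets on, A2 and C1, also had the most genes on of any kind, 3819 and 3103. Whether the number of genes on had a part in the number of targets was not tested.

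**Figure D4:**
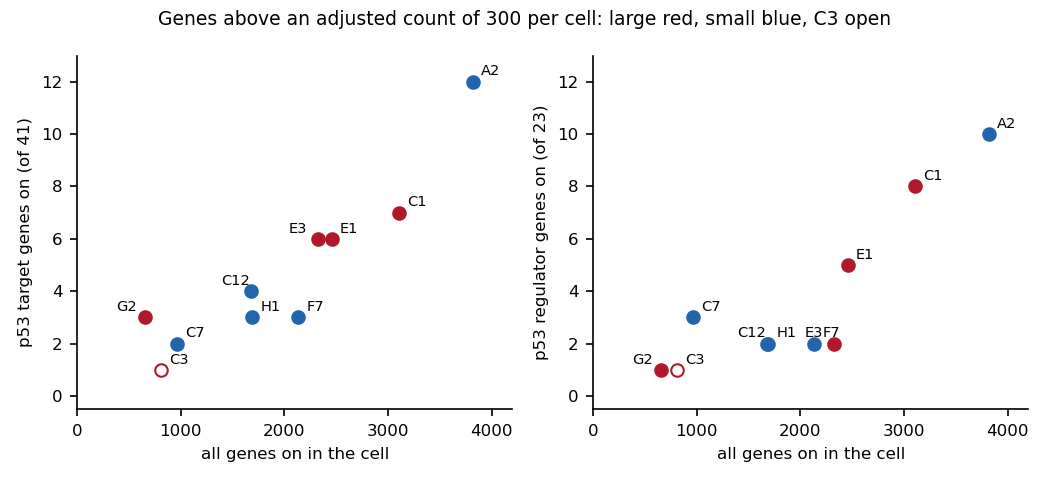
Number of p53 target genes on, of 41 (left), and of p53 regulator genes on, of 23 (right), against the number of all genes on in the same cell. The 23 regulators are the listed activators and inhibitors, without Mdm2 and Mdm4. Large cells are red, small cells blue and C3 is open, and A2 and C1 stand highest on both axes in both panels.

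The bulk libraries of 24 h and 0 h differed in more than time. In the 0 h library 33107 genes had a read, against 3519 to 8656 in the cells, and its counts followed exon length with a Spearman correlation across genes of 0.86, against 0.18 to 0.35 in the cells (genes are not independent replicates). Its median was 5.41 counts per kilobase, with Cd79a, a B cell receptor chain, at 4.80 and Ttn, a muscle gene, at 5.94. Of its counts, 31.6% fell on Gm10800 and Gm10801. Trp53 had 26 counts at 0 h, or 6.43 per kilobase, and the 9 members ran from 1.41 for Bbc3 to 7.12 for Ccng1. Trp53 and the muscle gene both lay within the middle 50% of that library (3.10 to 8.01 counts per kilobase). Its counts do not rank genes as the other libraries do, and no change with time is read from the ratios that follow.

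**Figure D5:**
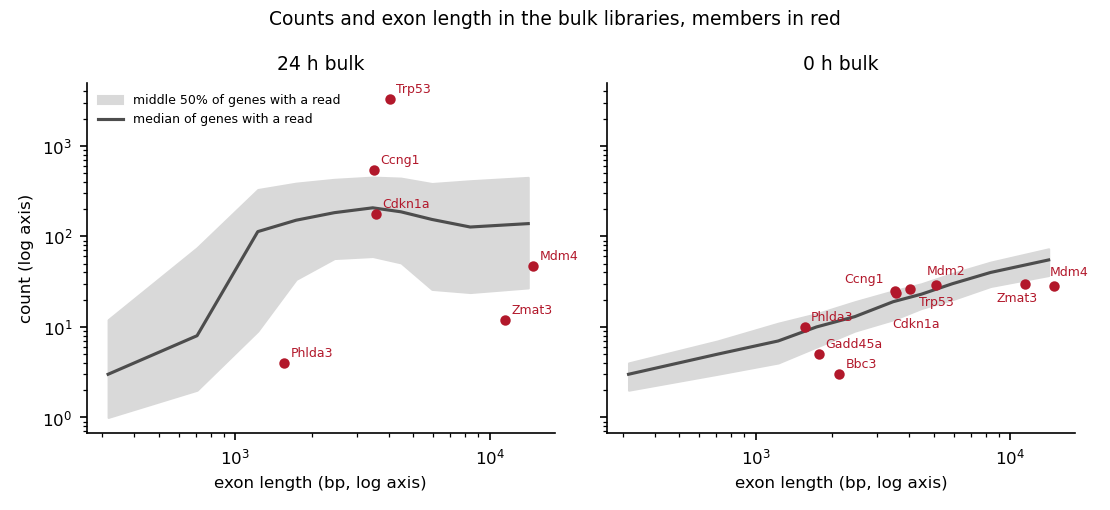
Counts of the members (red) against exon length in the 24 h bulk library (left) and the 0 h bulk library (right), on log axes, with the median (line) and the middle 50% (band) of all genes with a read. At 0 h the median climbs with length and Bbc3, Gadd45a, Zmat3 and Mdm4 lie below the band, while at 24 h Trp53 is far above the band with 3303 counts; members without a read are not drawn.

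With that limit, Trp53 had 1897 CPM at 24 h and 31.5 CPM at 0 h, a ratio of 60.2 (exact 95% interval from the binomial split of the counts, 41.04 to 92.4). Ccng1 had 310 CPM at 24 h and 30.3 CPM at 0 h (ratio 10.2, interval 6.85 to 15.9), and Cdkn1a had 102 CPM and 29.1 CPM (ratio 3.50, interval 2.28 to 5.60). These 3 of 9 members were at least 2-fold higher at 24 h, beside 10.7% of 27913 genes. With the authors' factor in place of CPM, 1 member was at least 2-fold higher and 7 were lower. That factor was 0.0602 for the 24 h library and 1 for the 0 h library. The share of all genes on this scale was not computed, so nothing about the members is read from these counts. By CPM another 5 were at least 2-fold lower, beside 86.2%, with a gene at 0 taken as 3 counts. They were Mdm2 with 0 counts at 24 h and 29 at 0 h, Gadd45a with 0 and 5, Bbc3 with 0 and 3, Zmat3 with 12 and 30 and Phlda3 with 4 and 10. With the floor, any gene without a read at 24 h and with 3 or more counts at 0 h has a ratio of 0.474 or less. Mdm2, Gadd45a and Bbc3 were thus counted as lower by construction. The part of the 86.2% that shares this was not counted. The upper ends of the intervals of the ratio were 0.0643 for Mdm2 and 0.381 for Zmat3, while those of Gadd45a (0.517), Phlda3 (0.658) and Bbc3 (1.15) lay above a 2-fold difference, and that of Bbc3 included 1. Mdm4 had 47 counts at 24 h and 28 at 0 h, a ratio of CPM of 0.796 whose interval (0.488 to 1.32) included 1. With most genes on the lower side, a lower value sets no member apart from the library as a whole. Trp53, Ccng1 and Cdkn1a, the 3 members above the 0 h level, were also the 3 with the highest CPM in the Positive library. That CPM is the numerator of the ratio, so the match is partly built in and nothing is read from it.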

How the data were processed

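The study sequenced 10 single B cells and 3 control libraries. The authors aligned reads with STAR to the m37 mouse genome with Ensembl genes and deposited whole-number counts per gene over exons. The counting tool, its strand setting and the STAR version were not given in the sources used here. Deposited too were a factor per library, which is a ratio obtained by fitting a line through the abundant spike-ins, and the relative volume of each cell, another deposited measure, from areas traced in images. A further 26 columns of per-sample values were not used, nor were the authors' own comparisons (expression scores, correlations and enrichment tables).

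Counts were multiplied by the deposited factor and 100 was added. A gene was on above 300, and the score was the fraction of large cells on (n = 4, without C3) less that of small cells (n = 5). CPM are counts scaled to a total of 1000000 gene counts. Because each size group is 1 sample, no p-value was computed. Log2 ratios compare mean adjusted counts. Intervals are exact Poisson or binomial intervals at 95%. Where a gene had no read, the level that 3 counts would give is stated. The score and the log2 ratio were computed on simulated Poisson counts with known changes, at the same depth and factor for all cells. Only the log2 ratio was compared with the known change. The simulation is therefore no check of the score in cells whose factors differ. Symbols matched 32919 of 37991 identifiers. Symbols and exon lengths came from GENCODE vM21 and windows from RefSeq, both GRCm38, which differs from the authors' build, so no deposited coordinate was used.

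The members and gene lists were chosen with earlier results of these data known. Named genes were the 9 members, called members of each list with up to 4 others of the largest log2 ratio, and the 5 genes most correlated with Trp53. Gm10800, Gm10801, Ttn, Trp53-ps and E230016M11Rik were named after their values were seen, or because of their sequence or position. Alternatives were other scalings, thresholds and constants, C3 kept and each cell left out; leaving out A2 and C1 together, and C3 from the counts of members on, were chosen after seeing the data. Scripts ran in Python 3.11.15 with scipy 1.17.1, pandas 2.3.3 and numpy 2.4.6, and figures used matplotlib 3.10.9.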

Additional observations from a re-analysis of the deposited data

Results flagged for a closer look

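In 15 groups of 5 cells whose values varied, 9 held a cell that stood apart from the other 4 by more than Dixon's 95% limit, where chance flags about 1 in 20 groups of normally distributed values. In the groups of Bbc3, and of Zmat3 among the small cells, the other 4 cells had no read, so that any read stands apart by this limit, and nothing is read from the number of such cells. Among the large cells, the adjusted count was 749 for Mdm4 in E1, 628 for Ccng1 in E3, 104 for Zmat3 in E3, 101 for Bbc3 in G2 and 168 for Gadd45a in G2. Among the small cells it was 1194 for Mdm4 in A2, 313 for Cdkn1a in A2, 103 for Zmat3 in A2 and 107 for Bbc3 in C12. The values for Zmat3 and Bbc3 lie within 10 of the added constant of 100 and stand for 3 to 23 reads.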

How the results depend on the processing

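No member was called higher or lower by score under any alternative run. Given the cells in which each member was on, leaving out 1 cell or keeping C3 could not bring a score to 0.5 or -0.5. Those runs are therefore no check on the lack of calls. The log2 ratio of Trp53 was 1.31 with equal totals, 1.43 in raw counts, 1.93 with a constant of 10, 1.55 with C3 kept and 1.36 without A2 and C1 together, and 1.21 to 2.19 with each cell left out. The median over the members on was 0.20 with equal totals, 0.41 in raw counts, -0.52 with a constant of 10, -0.57 with C3 kept and 0.68 without A2 and C1, and -0.61 to 0.56 with each cell left out. The members on were not the same in each setting, with 6 on at equal totals and in raw counts and 4 without A2. The median over all genes was 0.10 without A2 and C1, and -0.38 (without C1) to 0.53 (without A2) with each cell left out. Members were on in 11 cases above 500, 29 above 20 CPM and 49 with any read. The shares of such cases over all genes were not computed, and nothing about the members is read from these numbers. Members within 2-fold of the Positive library numbered 0 from pooled counts, 0 with C3 kept and 2 within 3-fold, and 0 to 1 with each cell left out (0 without E3, C12 or C7). With the authors' factor, 1 member was at least 2-fold higher and 7 were lower at 24 h. The share of all genes on that scale was not computed. The cause of these shifts was not tested. The number of genes called higher was 375, but 53 with C3 kept. No paired analysis was possible because the labels name wells and give no replicate number that both size groups share. Zmat3, Phlda3 and Bbc3 had at most 23 counts in a cell.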
